A study of Homo sapiens with 8 samples.

Results

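The 10 genes described here are LCN2, IL8 (CXCL8), CXCL1, CXCL2, CXCL3, CCL20, NFKBIA, TNFAIP3, PIGR and BIRC3, taken by symbol from the 25192 gene symbols of each library. They were chosen by the response of LCN2 to PrxII siRNA, which was lower in HT29 cells only, and by their known place in NF-κB-driven epithelial defence. The values under PrxII siRNA are therefore given as a description, and the calls that the fits across all genes make for these 10 genes are counted once and not read as tests. The choice was not stated in terms of the level in control cells of both lines, and test results are given for the 10 genes there. Those tests are not independent of the choice. Earlier results of these data were known, and the siCon libraries enter both comparisons. HT29 and SW480 are human colorectal cancer cell lines that express truncated APC. Each line was transfected for 36 h with control siRNA (siCon) or with siRNA against PRDX2 (siPrdx2), which encodes the peroxidase peroxiredoxin II (PrxII), with 2 libraries in each of the 4 groups. All 8 libraries are thus from transfected cells. The labels and the study speak of duplicate experiments without saying whether these were separate transfections, so that p-values measure only the spread between duplicates, which may be technical.

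NF-κB is a family of dimeric transcription factors held in the cytoplasm by IκB proteins. Tumour necrosis factor, interleukin-1 and bacterial products act through their receptors and adaptor proteins to activate the IκB kinase, which marks IκB for degradation and frees NF-κB to enter the nucleus. In the intestinal epithelium the pathway drives chemokines that recruit neutrophils and lymphocytes, antimicrobial proteins, and its own inhibitors. LCN2 (lipocalin 2, also called NGAL) is a secreted protein that binds bacterial siderophores and so withholds iron. IL8, CXCL1, CXCL2 and CXCL3 are neutrophil chemokines, and CCL20 attracts cells that carry CCR6. NFKBIA encodes IκBα and TNFAIP3 encodes the ubiquitin-editing enzyme A20, both of which end the response. PIGR carries polymeric immunoglobulins across the epithelium, and BIRC3 encodes cIAP2, a ubiquitin ligase of the tumour necrosis factor receptor complex.

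The sequences upstream of these genes are shown because NF-κB binds DNA at a short motif. The RefSeq promoter table (build GRCh38.p14) held 10 of 10 genes, and each sequence was found once in GRCh37, from which the positions are given. The 250 bases before each RefSeq start were searched on both strands for the κB consensus and for the overlapping motif GGAANNTCC, which was picked with these sequences in view. The κB consensus occurred upstream of 8 of the 10 genes and in 9.96% of 35116 promoters, and GGAANNTCC occurred upstream of 7 of the 10 genes and in 3.84% of the promoters. A match is a string of letters and not a measured site. Neither motif was in the window of PIGR. The LCN2 stretch covers chr9:130911544-130911731 on the plus strand and ends at the RefSeq start. It begins after an untranslated exon of 1 longer GENCODE transcript and lies within the GENCODE gene. The BIRC3 stretch covers chr11:102187965-102188214 on the plus strand, directly upstream of the gene. The shorter windows lie at chr4:74735016-74735056 (plus strand) for CXCL1, chr4:74964965-74965005 (minus) for CXCL2, chr4:74904460-74904500 (minus, within the first exon of 1 GENCODE transcript) for CXCL3, chr4:74606180-74606218 (plus) for IL8, chr2:228678464-228678503 (plus, within the GENCODE gene) for CCL20, chr14:35874174-35874205 and chr14:35874012-35874051 (minus) for NFKBIA and chr6:138188314-138188365 (plus, reaching into the GENCODE first exon) for TNFAIP3. Each is written 5′ to 3′ along the gene, with motif matches in capitals.
LCN2: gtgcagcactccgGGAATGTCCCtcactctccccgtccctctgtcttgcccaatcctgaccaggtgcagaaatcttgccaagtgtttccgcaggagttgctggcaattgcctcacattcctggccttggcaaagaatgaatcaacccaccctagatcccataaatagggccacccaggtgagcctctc
BIRC3: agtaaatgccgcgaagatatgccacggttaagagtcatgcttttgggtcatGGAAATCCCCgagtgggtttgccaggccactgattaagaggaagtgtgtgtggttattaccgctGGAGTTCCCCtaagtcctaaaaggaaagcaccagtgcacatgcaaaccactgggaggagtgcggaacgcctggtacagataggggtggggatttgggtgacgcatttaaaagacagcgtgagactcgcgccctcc
CXCL1: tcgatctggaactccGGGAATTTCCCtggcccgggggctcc
CXCL2: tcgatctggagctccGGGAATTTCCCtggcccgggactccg
CXCL3: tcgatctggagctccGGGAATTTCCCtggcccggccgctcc
IL8: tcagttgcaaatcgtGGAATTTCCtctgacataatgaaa
CCL20: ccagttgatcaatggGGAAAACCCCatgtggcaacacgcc
NFKBIA: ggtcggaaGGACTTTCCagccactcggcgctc
NFKBIA: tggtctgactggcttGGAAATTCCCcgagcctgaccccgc
TNFAIP3: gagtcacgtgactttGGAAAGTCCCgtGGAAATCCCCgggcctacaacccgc

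The matches began 175 bases before the RefSeq start of LCN2, 199 and 135 bases before that of BIRC3, and 78 or 79 bases before those of CXCL1, CXCL2 and CXCL3, whose capitals read the same. TNFAIP3 held 2 matches side by side. IL8 held GGAANNTCC only, and CCL20 and BIRC3 held the κB consensus only.

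Totals of expected counts ran from 8857442 to 10164137 in the 8 libraries. Levels are given in CPM (counts scaled by library size, with TMM factors computed over all 8 libraries), in which 3 counts correspond to 0.292 to 0.335 CPM (counting error only). PRDX2 fell by 0.87 on the log2 scale in HT29 cells (SE 0.05, adjusted p = 1.15e-09), from 153.2 and 158.8 CPM to 85.78 and 86.23 CPM. In SW480 cells it fell by 1.70 (SE 0.12, adjusted p = 0.000618). The fall was smaller in HT29 cells (difference of the log2 fold changes 0.84, SE 0.12, adjusted p = 0.0128). PrxII protein was not measured in these libraries. The PRDX2 values in the 8 libraries went with their labels. The SW480 control duplicates differed more than the others, with a chi-square per degree of freedom of 11.2 against 1.43 to 2.13, and their difference followed transcript GC content (Spearman's rho = -0.68 across 14038 genes, which are not independent, against -0.16 in HT29 cells). IL8, CCL20 and BIRC3 have transcripts of 32.5%, 35.5% and 35.8% GC, below nearly all genes (percentiles 0.1, 2.3 and 2.8), so their SW480 values are also given with a correction for GC content. The epithelial markers EPCAM, KRT8 and KRT18 were above 250 CPM in all 8 libraries. CDH1 was at 584.5 to 606.2 CPM in HT29 and at 24.8 to 29.12 CPM in SW480 cells, VIL1 at 162.2 to 167.6 and 50.55 to 56.69 CPM, and CDX2 at 9.157 to 14.62 and 19.08 to 30.05 CPM. KRT20, a marker of differentiated colonocytes, was at 463.1 to 627.5 CPM in HT29 cells and at 0.616 to 0.972 CPM in SW480 cells. Of 5 neutrophil markers, ELANE, CSF3R and FCGR3B were at 0 in all libraries and the summed level did not exceed 0.112 CPM. PTPRC, the marker of leukocytes, was at 0 throughout, and the 5 fibroblast and endothelial markers summed to at most 5.25 CPM, with DCN at 0. The 5 other immune markers summed to 3.01 to 7.22 CPM, most of it CD14.

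LCN2 was lower in depleted HT29 cells and not in depleted SW480 cells. It stood at 354.8 and 353.9 CPM in the siCon libraries and at 135.3 and 144.8 CPM in the siPrdx2 libraries. Both depleted libraries were thus below both controls, with a log2 fold change of -1.35 (SE 0.04), or 2.54-fold lower. In SW480 cells LCN2 was at 60.14 and 61.13 CPM with siCon and at 64.57 and 56.69 CPM with siPrdx2, so that the groups overlapped (log2 fold change 0.00, SE 0.12). The difference of the log2 fold changes between the lines was -1.35 (SE 0.12). After PrxII depletion the LCN2 level in HT29 cells was still above all 4 SW480 libraries. The value in HT29 cells was -1.33 with the GC correction, and that in SW480 cells -0.14. A lower level in bulk RNA cannot tell fewer expressing cells from less RNA per cell.

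**Figure D1:**
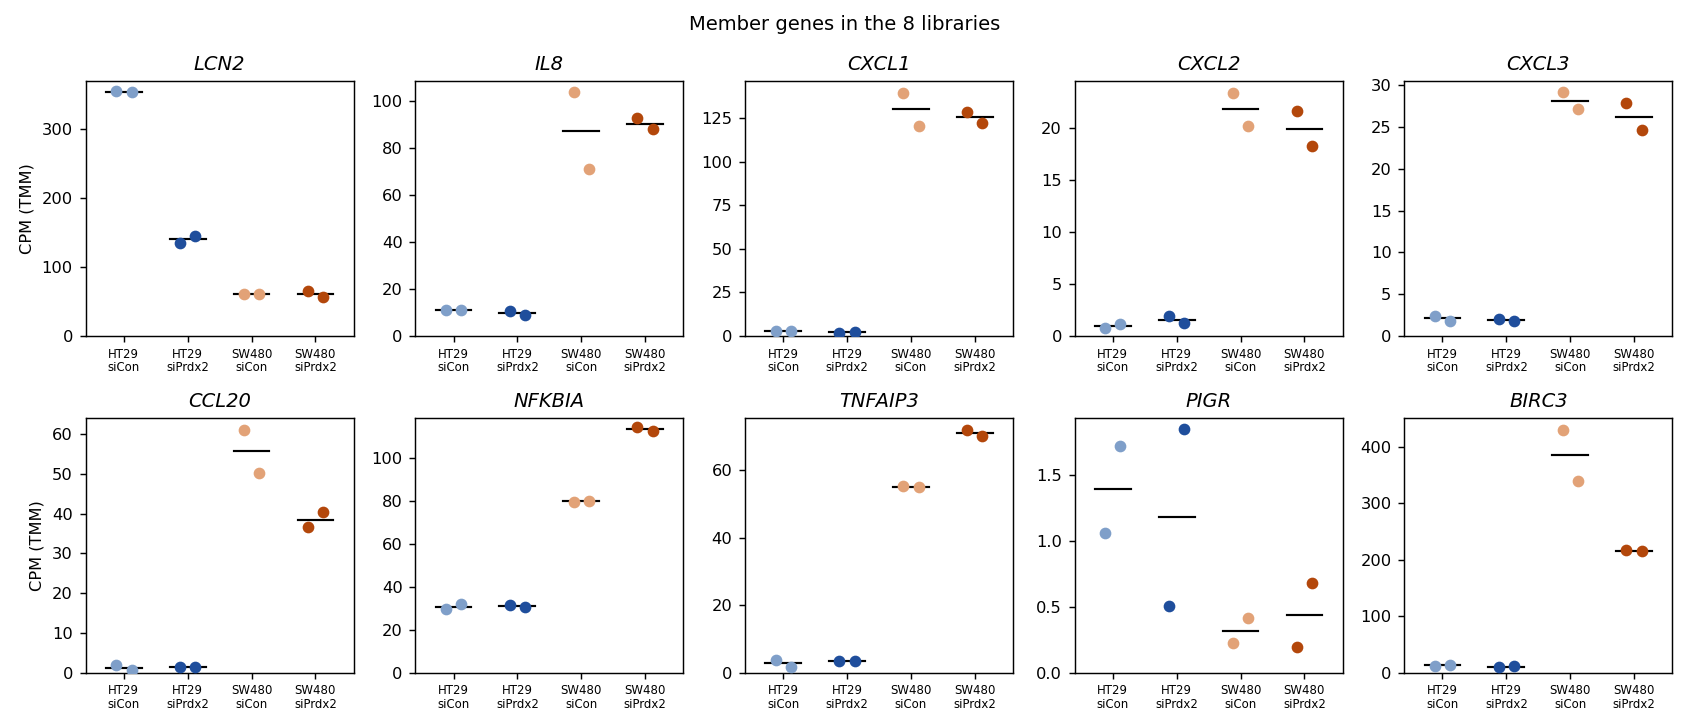
CPM (linear axes starting at 0, 1 panel a gene) of the 10 genes in the 8 libraries, with 2 points and a bar at their mean in each of the 4 groups. LCN2 is at 135.3 and 144.8 CPM in the siPrdx2 libraries of HT29 cells against 353.9 and 354.8 CPM in the controls, and 8 genes are higher in SW480 cells than in HT29 cells.

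The chemokines were low in HT29 cells with siCon and with siPrdx2. IL8 was at 10.83 and 11.1 CPM with siCon and at 10.76 and 8.939 CPM with siPrdx2 (log2 fold change -0.16, SE 0.15), where the first depleted library was just below both controls. CXCL1 was at 2.866 and 2.586 CPM with siCon and at 1.726 and 2.18 CPM with siPrdx2, lower in both depleted libraries (log2 fold change -0.49, SE 0.30). CXCL2 was at 0.743 and 1.185 CPM against 1.929 and 1.199 CPM, higher in both depleted libraries but resting on 7 to 19 counts a library (log2 fold change 0.70, SE 0.44). For CXCL3 and CCL20 the groups overlapped, with log2 fold changes of -0.15 (SE 0.33) and 0.08 (SE 0.44). CXCL1, CXCL2 and CXCL3 are paralogs in which 3.02% to 10.1% of the 50-base words of the transcripts occur in another of the 3, so that RSEM may split reads between them. Their summed level was 5.944 and 5.602 CPM with siCon and 5.685 and 5.123 CPM with siPrdx2, which overlapped.

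In SW480 cells the same chemokines were abundant. IL8 was at 103.9 and 71.1 CPM with siCon and at 92.8 and 88 CPM with siPrdx2, where the depleted libraries lay between the controls. Its log2 fold change of 0.05 (SE 0.17) became 0.37 with the GC correction. CXCL1 was at 139.5 and 120.7 CPM against 128.8 and 122.1 CPM, and the log2 fold changes of CXCL1, CXCL2 and CXCL3 lay between -0.13 and -0.05 with overlapping groups. CCL20 was the exception, at 61.14 and 50.24 CPM with siCon and at 36.54 and 40.35 CPM with siPrdx2. It was lower in both depleted libraries, by a log2 fold change of -0.53 (SE 0.14) that was -0.27 with the GC correction. The share of the SW480 control libraries' GC difference in these values was not tested.

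The inhibitors NFKBIA and TNFAIP3 stood higher in depleted SW480 cells. NFKBIA was at 79.67 and 80.24 CPM with siCon and at 114.7 and 112.6 CPM with siPrdx2 (log2 fold change 0.51, SE 0.11, and 0.45 with the GC correction). TNFAIP3 was at 55.23 and 54.97 CPM against 72 and 70.11 CPM (log2 fold change 0.37, SE 0.11, and 0.41 with the GC correction). Both groups were apart for both genes, and the control duplicates were close. In HT29 cells NFKBIA overlapped at 29.51 and 31.89 CPM with siCon and 31.57 and 30.74 CPM with siPrdx2 (log2 fold change 0.01, SE 0.08). TNFAIP3 overlapped as well, at 3.715 and 1.724 CPM against 3.553 and 3.379 CPM. The difference between the lines was -0.49 (SE 0.12) for NFKBIA and -0.03 (SE 0.34) for TNFAIP3.

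BIRC3 was lower in both depleted libraries of each line. In SW480 cells it was at 430 and 339.9 CPM with siCon and at 216.2 and 215.9 CPM with siPrdx2, a log2 fold change of -0.83 (SE 0.13). The control duplicates of SW480 cells were far apart, and the value was -0.57 with the GC correction and -1.0 to -0.66 when a library was left out. In HT29 cells BIRC3 was at 12.21 and 13.68 CPM with siCon and at 9.34 and 11.55 CPM with siPrdx2 (log2 fold change -0.32, SE 0.15). PIGR was near the limit of detection, at 1.061 and 1.724 CPM with siCon and 0.5076 and 1.853 CPM with siPrdx2 in HT29 cells, and at 0.1981 to 0.6807 CPM in SW480 cells, where it had too few counts to be tested.

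In the fit across all genes of HT29 cells 1 of the 10 genes, LCN2, had an adjusted p under 0.05 and was lower, which the choice of the genes fixed, against 7.76% of 12961 tested genes called higher and 9.82% called lower. The groups did not overlap for 5 of the 10 genes, against 57.2% of tested genes. In SW480 cells 1 gene (NFKBIA) was called higher and 1 (BIRC3) lower among the 9 tested, against 1.22% and 2.08% of 14112 genes, and the groups did not overlap for 4, against 58.7%. For the difference between the lines 1 gene (LCN2, lower) was called, also fixed by the choice, against 0.616% higher and 0.508% lower of 14772 genes. Since the response of all 10 was known when they were chosen, nothing is read from these counts. Their median log2 fold change was -0.15 in HT29 cells and -0.05 in SW480 cells, against 0.00 for all tested genes in each line.

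**Figure D2:**
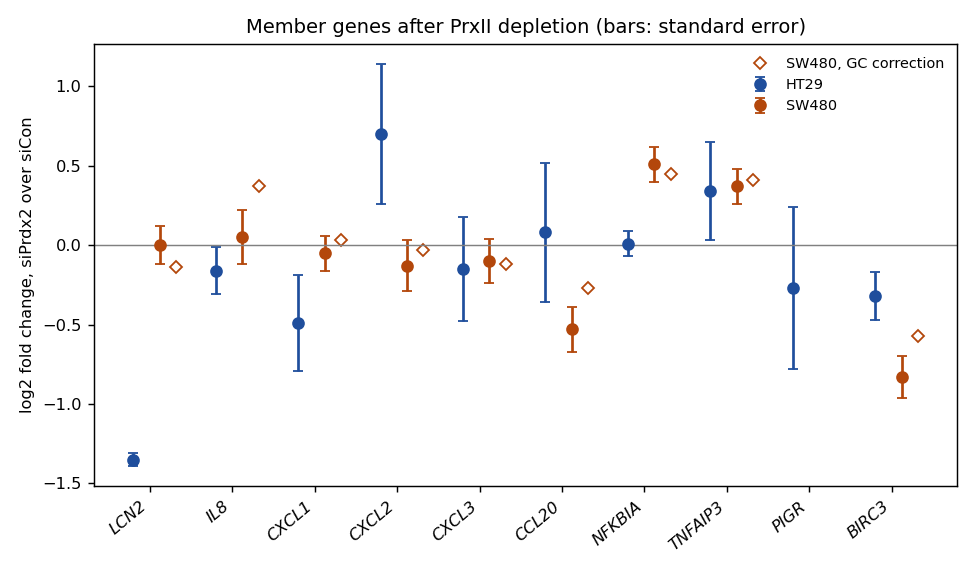
Log2 fold change of siPrdx2 over siCon for the 10 genes in HT29 (blue) and SW480 cells (orange), with bars of 1 standard error, and the SW480 value after the GC correction as open diamonds. PIGR was not tested in SW480 cells. LCN2 is at -1.35 in HT29 cells and at 0.00 in SW480 cells, and BIRC3 is at -0.83 in SW480 cells, or -0.57 after the correction.

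For each of the 10 genes the difference between the lines was larger than its difference after PrxII depletion in the lines where that was fitted. In control siRNA cells all 10 genes differed between HT29 and SW480 (edgeR, Benjamini-Hochberg adjusted p under 0.05), 2 higher and 8 lower in HT29 cells, against 31.8% of 14346 genes called higher and 35.7% called lower. PIGR passed the filter on low counts only through HT29 cells, and CXCL2 and CCL20 only through SW480 cells. Once tested, these genes had to differ in that direction, so that their calls and adjusted p-values are no evidence for it. The median log2 fold change of HT29 over SW480 was -4.04, against -0.04 for all tested genes. The labels give no batch that both lines share, so that cell line and library preparation cannot be told apart. These tests share the siCon libraries with the comparisons above.

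LCN2 was higher in HT29 cells, by a log2 fold change of 2.54 (SE 0.10, adjusted p = 1.78e-07), or 5.83-fold. PIGR was also higher in HT29 cells (log2 fold change 2.07, SE 0.55, adjusted p = 0.0097). It had 26 counts in the 2 HT29 control libraries and 6 in those of SW480, a ratio of 4.33 (95% interval 1.74 to 12.9, counting error only). It passed the filter on low counts only through HT29 cells, so its call is no evidence for the direction. This call was lost without SW480 siCon replicate 1 (adjusted p = 0.0639) and with DESeq2 (adjusted p = 0.084). Without either HT29 siCon library PIGR no longer passed the filter on low counts and was not tested, so that 1 of the 4 fits without a library kept the call. The LCN2 call was not lost with any alternative run.

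All 4 neutrophil chemokines and CCL20 were lower in HT29 cells. CXCL1 was 47.5-fold lower (log2 fold change -5.57, SE 0.17, adjusted p = 6.47e-08). CXCL2 was 22.4-fold lower (log2 fold change -4.49, SE 0.27), on 18 counts in the HT29 control libraries and 407 in those of SW480. CXCL3 was 13.4-fold lower (-3.75, SE 0.21, adjusted p = 1.12e-06). Summed over the 3 paralogs, the levels were 5.602 and 5.944 CPM against 192 and 168.1 CPM. IL8 was 7.98-fold lower (-3.00, SE 0.20, adjusted p = 3.39e-06), and CCL20 43.0-fold lower (-5.43, SE 0.27). CXCL2 and CCL20 passed the filter on low counts only through SW480 cells, so their direction was fixed and no p-value is given for them. The value of CCL20, which had 17 and 7 counts in the HT29 control libraries, was -6.15 without HT29 siCon replicate 1 and -4.91 without replicate 2, and its interval overlapped that of CXCL1. IL8, CXCL1, CXCL2 and CXCL3 all lie on chromosome 4, at chr4:74606236-74609433, chr4:74735110-74737025, chr4:74962757-74964913 and chr4:74902306-74904524 (GRCh37), while CCL20 lies at chr2:228670455-228682280.

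The feedback genes and BIRC3 were lower in HT29 cells too. NFKBIA (chr14:35870285-35873955) differed least, 2.61-fold (log2 fold change -1.38, SE 0.12, adjusted p = 1.41e-05). TNFAIP3 (chr6:138188351-138204451) was 20.2-fold lower (-4.33, SE 0.25, adjusted p = 1.13e-06) and BIRC3 (chr11:102188215-102210134) 29.8-fold lower (-4.90, SE 0.16, adjusted p = 7.71e-08). Without HT29 siCon replicate 1 the value of TNFAIP3 was -4.96, and without replicate 2 it was -3.86. LCN2 (chr9:130911350-130915732) and PIGR (chr1:207101867-207119811) were thus the 2 of the 10 genes with the opposite direction.

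**Figure D3:**
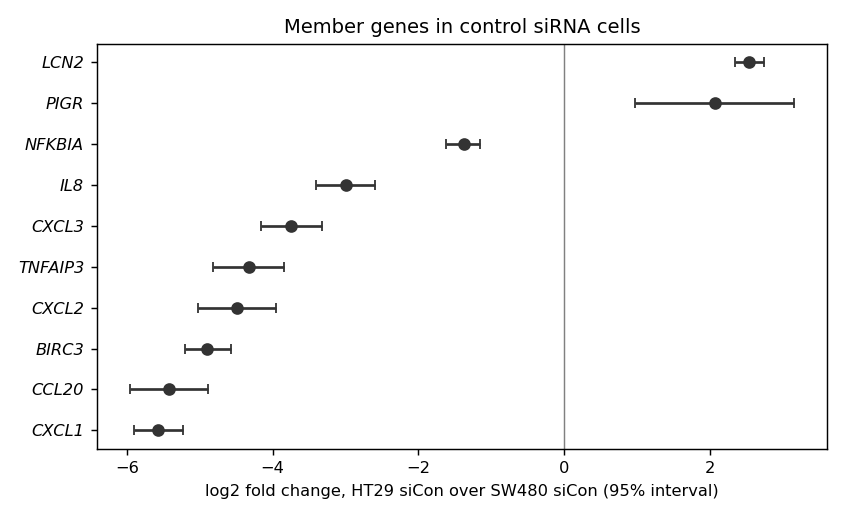
Log2 fold change of HT29 siCon over SW480 siCon for the 10 genes, ordered by value, from the edgeR fit of 2 against 2 libraries. The 95% intervals are normal approximations from the SE and are too narrow for so few libraries. LCN2 (2.54) and PIGR (2.07) lie to the right of 0, and the other 8 genes lie between -5.57 and -1.38.

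Levels of different genes were compared in TPM, which accounts for transcript length. In HT29 siCon cells LCN2 was the highest of the 10 at 951.4 ± 1.17 TPM (SD, n = 2), above 99.5% of all genes, followed by NFKBIA at 41.86 ± 2.33 TPM and IL8 at 13.7 ± 0.247 TPM. The other 7 were at 0.68 to 5.02 TPM on average, and from BIRC3 down each overlapped the next in order. After PrxII depletion LCN2 was still first, at 390.9 ± 17.9 TPM. In SW480 siCon cells CXCL1 was first at 263.8 ± 28.5 TPM, then LCN2 at 178.8 ± 0.679 TPM and CCL20 at 160.4 ± 23.4 TPM. In this order the neighbours CCL20, BIRC3, IL8 and NFKBIA overlapped, and PIGR was last at 0.17 ± 0.0707 TPM. In depleted SW480 cells BIRC3 stood at 91.43 ± 1.10 TPM, below CCL20 at 117.5 ± 8.29 TPM, and NFKBIA at 180.6 ± 2.26 TPM overlapped LCN2 at 189.7 ± 17.3 TPM.

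The genes whose pattern was most like that of LCN2 were HERC6, PER3, PSME1, DDX39B and KIAA1161, with Pearson's r of 0.989 to 0.982 on log2(CPM + 1) over the 8 libraries, among 11803 genes with a mean of at least 5 CPM. The 8 points share 2 lines and 4 groups, and r is given as a description. HERC6, a member of the HERC ubiquitin ligase family, was at 24.84 and 25.64 CPM in HT29 siCon, at 15.84 and 15.15 CPM in HT29 siPrdx2 and at 7.584 to 9.93 CPM in SW480 cells. PER3, a circadian clock gene, was at 20.7 and 19.39 CPM, at 11.37 and 11.34 CPM and at 6.248 to 7.824 CPM in the same order. None of the other 9 members was among the 5, and r with LCN2 was -0.92 to -0.86 for 8 of them and 0.75 for PIGR. The 8 resembled BIRC3 instead, at r between 0.94 and 0.99 for the 7 other than BIRC3 itself.

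The other genes of the pathway were taken as 5 lists of 151 genes, without the 10. Like the 10, these lists were chosen with earlier results of these data known. Their shares, set beside those of all tested genes, are therefore a description and not a test of the pathway. In HT29 cells 19 of the 96 tested changed, 15 higher (15.6%, against 7.76% of all tested genes) and 4 lower (4.17%, against 9.82%), with a median log2 fold change of -0.03. In SW480 cells 17 of 113 changed, 12 higher (10.6%, against 1.22%) and 5 lower (4.42%, against 2.08%), with a median of 0.16. The counts depend on the fit. In HT29 cells 8 of the genes were called with DESeq2 and 2, PTGS2 and TAPBP, when all 8 libraries were fitted together, and in SW480 cells 32 were called with the GC correction, 43 without siCon replicate 1, 69 without siCon replicate 2, and 2 and 3 without siPrdx2 replicate 1 and 2.

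Among signalling components, 3 of 27 rose in HT29 cells by small amounts (11.1%, against 7.76% of all tested genes). The 3 were MAP3K14 (log2 fold change 0.29, adjusted p = 0.0372), IKBKG (0.28, adjusted p = 0.0356) and TRAF2 (0.22, adjusted p = 0.0243). MAP3K14 encodes the kinase NIK, IKBKG the regulatory subunit of the IκB kinase and TRAF2 an adaptor. All 3 calls were lost with DESeq2. None of the 27 fell, against 9.82% of all tested genes. In SW480 cells 1 of 26 rose (3.85%, against 1.22% of all tested genes), MYD88, the adaptor of Toll-like and interleukin-1 receptors. It went from 48.2 and 45.93 CPM to 72.49 and 70.59 CPM (log2 fold change 0.61, SE 0.11, adjusted p = 0.03). Of the inhibitors and feedback genes, 3 of 17 rose in HT29 cells (17.6%, against 7.76%), namely NFKBIB (0.22), ITCH (0.21) and TOLLIP (0.21). Of these calls only that of ITCH was kept with DESeq2. In SW480 cells 3 of 17 rose (17.6%, against 1.22%). These were TRAF1, from 35.71 and 35.75 CPM to 55.96 and 62.72 CPM (log2 fold change 0.73, adjusted p = 0.0212), ZC3H12A, which encodes the RNase Regnase-1 (0.71, adjusted p = 0.0294), and TOLLIP (0.63, adjusted p = 0.0339).

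Of the receptors and inducing ligands, 4 of 16 rose in HT29 cells (25%, against 7.76% of all tested genes). They were TNFRSF12A (0.22), TNFRSF1A (0.21), TNFSF15 (0.20) and TNFRSF21 (0.19). The TNFRSF1A and TNFSF15 calls were lost with DESeq2 (adjusted p = 0.146 and 0.196). TNFRSF1A is the main receptor of tumour necrosis factor and stood at 81.09 and 82.52 CPM against 94.92 and 94.84 CPM (adjusted p = 0.00811). In SW480 cells TNFSF10, which encodes TRAIL, and the death receptor TNFRSF21 rose by log2 fold changes of 0.65 (adjusted p = 0.047) and 0.57 (adjusted p = 0.0301), whereas LTB, which encodes lymphotoxin β, fell. LTB was at 61.59 and 64.62 CPM with siCon and at 32.98 and 34.32 CPM with siPrdx2 (log2 fold change -0.91, SE 0.12, adjusted p = 0.00911). Among receptors of the members' own products, CCR6 did not exceed 0.4246 CPM and CXCR1 did not exceed 0.5579 CPM in any library, levels of a few counts. SLC22A17, a receptor of LCN2, was at 0 in all HT29 libraries, and in SW480 cells at 5.802 and 7.603 CPM with siCon and 11.09 and 10.99 CPM with siPrdx2 (log2 fold change 0.72, SE 0.20, adjusted p = 0.0839). These 3 receptors were named after their values were seen, and others on the lists, such as CXCR2, are not described here.

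Among other target genes, 4 of 25 rose (16%, against 7.76% of all tested genes) and 1 fell (4%, against 9.82%) in HT29 cells. PTGS2, which encodes cyclooxygenase-2, rose from 26.96 and 25.53 CPM to 42.43 and 45.46 CPM (log2 fold change 0.73, SE 0.08, adjusted p = 3.83e-06), and the adhesion molecule ICAM1 from 13.06 and 11.31 CPM to 16.14 and 18.97 CPM (0.52, SE 0.13, adjusted p = 0.0115). IER3 rose by 0.25 (adjusted p = 0.00107). TAPBP, the antigen-loading protein tapasin, fell from 162.3 and 148.1 CPM to 115.2 and 115.4 CPM (-0.44, SE 0.05, adjusted p = 9.09e-06). In SW480 cells 5 of 33 rose (15.2%, against 1.22%) and 4 fell (12.1%, against 2.08%). The acute-phase genes SAA2 (-1.25, SE 0.13, adjusted p = 0.00383) and SAA1 (-0.86, SE 0.11, adjusted p = 0.00881) fell together, and since 17.3% and 19.6% of their 50-base words are shared, their sum is the safer value, at 239.9 and 216.1 CPM with siCon and 114.5 and 115.5 CPM with siPrdx2. The neutrophil chemokine CXCL5 fell from 9.373 and 7.808 CPM to 2.971 and 3.987 CPM (-1.30, SE 0.23, adjusted p = 0.0263), and the chemokine CXCL16 rose from 31.69 and 35.24 CPM to 62.1 and 59.61 CPM (0.86, SE 0.12, adjusted p = 0.0118).

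Of the epithelial defence proteins, 3 of 11 fell (27.3%, against 9.82% of all tested genes) and 1 rose (9.09%, against 7.76%) in HT29 cells. The protease inhibitors PI3 (elafin) and SLPI fell, PI3 from 4.458 and 2.586 CPM to 1.218 and 1.526 CPM (-1.37, SE 0.35, adjusted p = 0.0105) and SLPI from 8.279 and 7.434 CPM to 4.264 and 5.559 CPM (-0.69, SE 0.19, adjusted p = 0.0202). LYZ, which encodes lysozyme, fell by 0.09 on the log2 scale at 3020 to 3299 CPM (adjusted p = 0.000288), and CD55, the complement regulator, rose by 0.17 (adjusted p = 0.0225). DESeq2 gave no adjusted p for PI3 and SLPI and 0.159 for CD55. In SW480 cells 1 of 15 was called, WFDC2, which was higher (6.67%, against 1.22%). It went from 10.93 and 14.18 CPM to 24.07 and 23.24 CPM (0.91, SE 0.18, adjusted p = 0.0321).

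**Figure D4:**
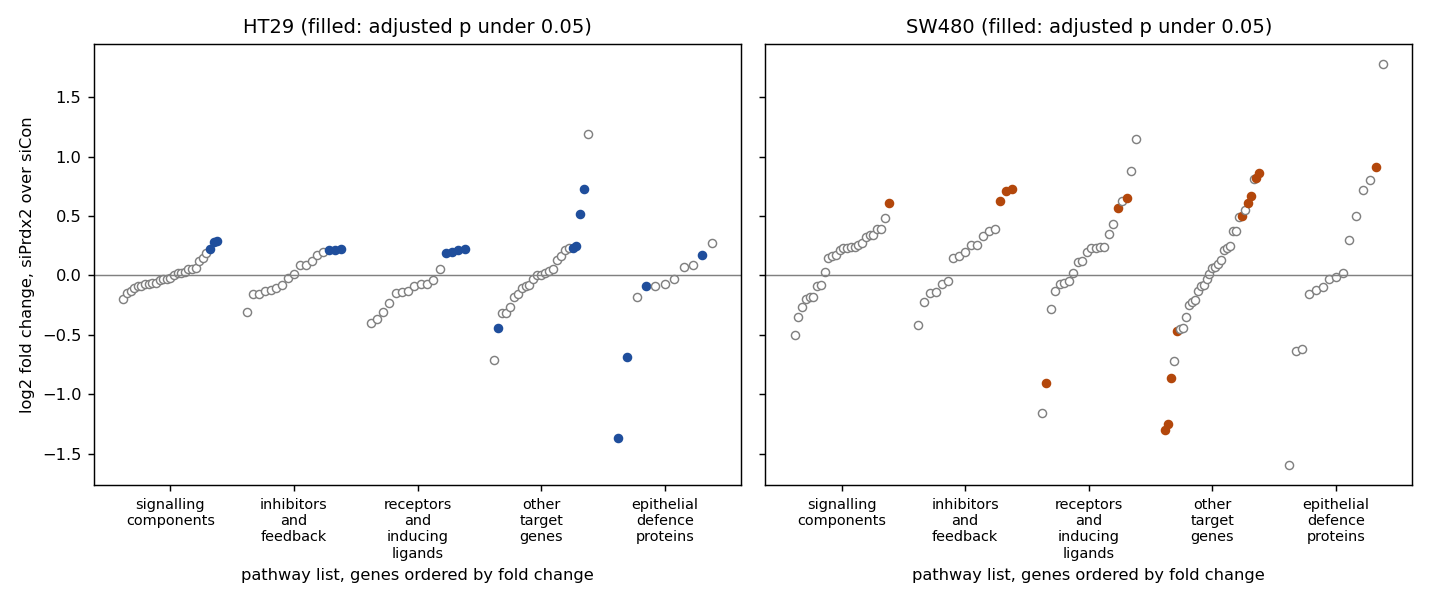
Log2 fold change of siPrdx2 over siCon for the tested genes of the 5 pathway lists in HT29 (left) and SW480 cells (right), ordered by value within each list, with filled points for an adjusted p under 0.05. The 15 genes called higher in HT29 cells lie between 0.17 and 0.73, and the lowest filled points are PI3 (-1.37) in HT29 cells and CXCL5 (-1.30) in SW480 cells.

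The response of 8 of 119 pathway genes differed between the lines. For 1 the log2 fold change was higher in HT29 cells (0.84%, against 0.616% of all tested genes) and for 7 it was lower there (5.88%, against 0.508%). SDC4, which encodes syndecan-4, was at 503.1 and 470.7 CPM in SW480 siCon and at 857.6 and 855.1 CPM in SW480 siPrdx2, and at 134.6 to 145.5 CPM in HT29 cells (difference -0.77, SE 0.09, adjusted p = 0.00458). TAPBP differed by -0.81 (SE 0.12, adjusted p = 0.0153) and MYD88 by -0.72 (SE 0.12, adjusted p = 0.0209). Without any 1 of the HT29 libraries or of the SW480 siPrdx2 libraries no pathway gene was called by edgeR, with 20 to 27 at an unadjusted p under 0.05. Without SW480 siCon replicate 1 there were 22 calls, and without replicate 2 there were 40. With DESeq2 on all libraries 12 were called.

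In control siRNA cells 95 of 117 pathway genes differed between the lines, 40 higher in HT29 cells (34.2%, against 31.8%) and 55 lower (47.0%, against 35.7%). Of the 117, 22 reached 10 counts in both control libraries of SW480 cells only and 7 in those of HT29 cells only, and these had to differ in that direction. Of the other target genes, 25 of 34 were lower in HT29 cells (73.5%, against 35.7% of all tested genes) and 6 higher (17.6%, against 31.8%). Of these, 10 of the 25 and 1 of the 6 were measured in this way in 1 line only. SAA2 was at 0 counts in both HT29 control libraries and 1479 in those of SW480, at least 493-fold higher in SW480 cells (floor of 3 counts over the group), and CCL2 was at least 224-fold higher. TNF itself was at 0 in HT29 cells and at 7.364 and 8.322 CPM in SW480 siCon, at least 49.0-fold higher. Its receptor TNFRSF1B was at 3 counts against 4231, and the sensor NOD2 at 1 against 397. Signalling components were called in both directions, 12 of 27 higher (44.4%, against 31.8% of all tested genes) and 9 lower (33.3%, against 35.7%). Among them were RELB (log2 fold change -1.60, adjusted p = 5.68e-05), a subunit of NF-κB, and TRAF3IP2, an adaptor of interleukin-17 receptors. TRAF3IP2 was at 502 counts in the HT29 control libraries against 10. It passed the filter on low counts only through HT29 cells, so its direction (log2 fold change 5.61) was fixed once it was tested. Of the inhibitors and feedback genes, 5 of 17 were higher in HT29 cells (29.4%, against 31.8%) and 6 lower (35.3%, against 35.7%). NFKBIZ, which encodes IκBζ, was among the higher, at 80.35 and 74.01 CPM against 29.23 and 24.45 CPM (1.52, SE 0.14). It was named after its values were seen and was not among the genes called after PrxII depletion in either line. A link to LCN2 was not tested. Of the epithelial defence proteins, 7 of 15 were higher (46.7%, against 31.8%) and 6 lower (40%, against 35.7%) in HT29 cells. Of these, 2 of the 7 and 4 of the 6 were measured in 1 line only. LYZ (3299 and 3207 against 3.905 and 4.315 CPM) and LGALS4 (532.4 and 544.4 against 0.5579 and 0.3082 CPM), which encodes galectin-4, were higher there, as LCN2 was.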

How the data were processed

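Messenger RNA of HT29 and SW480 cells was sequenced in 8 libraries, grouped by the sample labels. According to the methods, described for HT29, the authors trimmed the reads, aligned them to hg19 with MapSplice and quantified 25192 gene symbols with RSEM. The deposited expected counts are RSEM's estimated reads per gene, and the deposited TPM values are scaled by the authors to transcript length and library total. TPM was used only to compare levels between genes and in 1 alternative. Multimapped reads are divided by RSEM, which affects paralogs. The submitters' processing notes also name FastQC and DESeq2.

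Expected counts were rounded and tested with edgeR 4.0.16 (R 4.3.3; TMM, glmQLFit, glmQLFTest, Benjamini-Hochberg over all tested genes, threshold 0.05) in genes reaching 10 counts in 2 or more libraries. Fits held the libraries compared, and all 8 for the difference between lines. The SE is the log2 fold change divided by the square root of F. CPM floors and counting intervals cover counting error only.

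The 10 genes, the pathway lists and the lists of markers were chosen with earlier results of these data known. Named pathway genes are, per list, up to 4 with the largest change among those called with a mean of at least 1 CPM (3 in control cells), others being marked as such or counted. Alternatives were RLE scaling, no filter, DESeq2 1.42.0, a replicate block, a loess GC correction (span 0.5, 89.2% of symbols matched), all 8 libraries together, log2(TPM + 1) and leaving out libraries. Scripts were tested on simulated data.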

Additional observations from a re-analysis of the deposited data

Results flagged for a closer look

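For 6 of the named pathway genes the response to PrxII depletion differed between the lines by a test of the difference itself (edgeR, all 8 libraries, log2 fold change in HT29 minus that in SW480 cells). MYD88, the receptor adaptor, differed by -0.72 (SE 0.12, adjusted p = 0.0209), at -0.11 in HT29 and 0.61 in SW480 cells. ZC3H12A, the RNase gene, differed by -0.87 (SE 0.16, adjusted p = 0.0331), at -0.16 and 0.71. The chemokine CXCL16 differed by -0.86 (SE 0.15, adjusted p = 0.0249), at 0.00 and 0.86. TAPBP differed by -0.81 (SE 0.12, adjusted p = 0.0153), at -0.44 and 0.37. SDC4 differed by -0.77 (SE 0.09, adjusted p = 0.00458), at 0.04 and 0.82. ICAM1 was the only one of the 6 in the opposite direction, at 0.72 (SE 0.15, adjusted p = 0.0493), with 0.52 in HT29 and -0.21 in SW480 cells. All 6 calls were lost without any 1 HT29 library or any 1 SW480 siPrdx2 library, and that of ICAM1 also with RLE scaling (adjusted p = 0.0507) and with the replicate block (adjusted p = 0.0547). Groups of 2 libraries are too small for a search for outlying libraries.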

How the results depend on the processing

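No called result changed sign under the alternatives run. The 10 genes called between the control cells remained 9 or 10, with PIGR the gene lost. The LCN2 value in HT29 cells was -1.28 on log2(TPM + 1) and -1.40 to -1.29 when a library was left out. The HT29 values of 5 members reached both signs when a library was left out, from -0.40 to 0.84 for CCL20, -0.11 to 0.99 for TNFAIP3, -1.44 to 0.41 for PIGR, -0.31 to 0.04 for CXCL3 and -0.04 to 0.07 for NFKBIA. In SW480 cells the LCN2 value was -0.14 with the GC correction, -0.15 with the GC correction and block, and -0.09 to 0.09 when a library was left out. The pathway genes called in HT29 cells were 8 with DESeq2, 2 with all 8 libraries fitted together and 14 to 20 when a library was left out. In SW480 cells they were 34 with all libraries together, 32 with the GC correction and 2 to 69 when a library was left out. For the difference between the lines they were 19 with the GC correction and 0 to 40 when a library was left out, and in control cells 70 to 81 against 95. The call of TNFSF10 in SW480 cells was lost without a filter (adjusted p = 0.0556). The causes of these changes were not tested. Fits without a library hold fewer samples, and their calls moved in both directions in SW480 cells and for the difference between the lines.

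The replicate numbers are shared by the groups, but the labels do not tie equal numbers to each other, and the deviations of equally numbered libraries correlated at 0.05 in HT29 and 0.08 in SW480 cells. With the replicate block 27 pathway genes were called in SW480 cells, and with the GC correction and the replicate block 32, and 21 for the difference between the lines. With 2 libraries a group, small changes of low genes such as PIGR, CXCL2 and CCL20 in HT29 cells are beyond this depth.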
